A study of Mus musculus with 4 samples.

Results

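The Frizzled receptors Fzd1 to Fzd10, 10 of the 32479 genes counted, were followed across the cell types and both genotypes of the mouse epidermis at single-cell resolution. The members are the complete gene family, chosen by symbol and not by any measured value. Dorsal skin came from 4 female C57BL/6N mice at postnatal day 19, all carrying floxed CerS4 alleles (CerS4fl/fl). The 2 control mice lacked Cre (K14Cre-), and the 2 CerS4epi-/- mice carried it (K14Cre+). The Cre is driven by the keratin 14 promoter, so deletion of CerS4, a ceramide synthase, occurs in basal keratinocytes and their descendants and not in the immune cells of the tissue.

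Frizzleds are membrane receptors that bind Wnt ligands through a cysteine-rich extracellular domain and pass the signal to Dishevelled. With the co-receptors Lrp5 or Lrp6 they stabilise beta-catenin (the canonical branch), and with other partners they set the polarity of cells in the plane of the tissue or release calcium. In skin, Wnt signals are known to drive hair follicle formation and the activation of hair follicle stem cells, and Fzd6 is known to be needed for the orientation of hair follicles in the mouse.

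All 10 members were matched in the gene annotation (GENCODE vM39 on GRCm39), and 5 of them have a single exon in their canonical transcript. On chromosome 5 lie 3 of the loci, Fzd1 (chr5:4803839-4808035, minus strand), Fzd9 (chr5:135277792-135280084, minus strand) and Fzd10 (chr5:128677908-128681157, plus strand). Fzd5 (chr1:64769717-64776934, minus strand) and Fzd7 (chr1:59521269-59534685, plus strand) lie on chromosome 1. Fzd2 is at chr11:102495222-102498884 on the plus strand, Fzd6 at chr15:38869243-38901584 on the plus strand and Fzd3 at chr14:65429573-65499933 on the minus strand. Over the 45 pairs of coding sequences, identity over the aligned bases ranged from 58.9 to 82.0% with a median of 64.9%. The closest pairs were Fzd1 and Fzd2 (82.0%), Fzd2 and Fzd7 (78.8%), Fzd1 and Fzd7 (78.5%), Fzd5 and Fzd8 (76.3%) and Fzd9 and Fzd10 (71.8%), and these groups only set the order of the description below. Of the nonzero entries per cell, 0.22% were not whole numbers for Fzd3 and 0% for each of the other members, so almost no reads of these genes were shared with another gene.

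The 200 bases upstream of the annotated start are given for Fzd5, Fzd7 and Fzd10, which are 3 of the 5 members that differed between the genotypes in some cell class. For Fzd6 this window overlaps the annotated gene and is not shown. Capitals mark matches on either strand to the GC box GGGCGG and the CCAAT box. The letters CTTTGA, the core recognised by the Wnt effectors TCF and LEF, and the TATA box TATAAA were also searched and matched in none of these windows. The windows are Fzd5 (chr1:64776935-64777134, minus strand), Fzd7 (chr1:59521069-59521268, plus strand) and Fzd10 (chr5:128677708-128677907, plus strand), each read 5′ to 3′ along its gene.
Fzd5: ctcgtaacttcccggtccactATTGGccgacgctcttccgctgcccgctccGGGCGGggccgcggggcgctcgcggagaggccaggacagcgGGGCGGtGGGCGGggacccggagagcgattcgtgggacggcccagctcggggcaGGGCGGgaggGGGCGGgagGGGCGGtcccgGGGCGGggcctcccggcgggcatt
Fzd7: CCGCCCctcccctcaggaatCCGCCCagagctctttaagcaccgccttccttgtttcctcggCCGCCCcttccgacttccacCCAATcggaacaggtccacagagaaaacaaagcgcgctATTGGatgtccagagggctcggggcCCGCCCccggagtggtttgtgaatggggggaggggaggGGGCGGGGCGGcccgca
Fzd10: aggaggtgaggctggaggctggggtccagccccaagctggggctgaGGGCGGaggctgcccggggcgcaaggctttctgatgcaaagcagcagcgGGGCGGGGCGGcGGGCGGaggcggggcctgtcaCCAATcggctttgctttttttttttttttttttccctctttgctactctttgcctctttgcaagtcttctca
Of 21770 protein-coding promoters of the same length, 34.8% held a GC box, 32.3% a CCAAT box, 11.3% CTTTGA and 9.57% TATAAA. The 3 windows held 7, 6 and 4 GC boxes and 1, 2 and 1 CCAAT boxes in the order given. A match is a description of the letters and not of a bound site.

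Each mouse, told apart by a sample tag, gave 39231945 to 53106317 counts, and 34150 cells, 7567 to 9086 per mouse, passed a minimum of 1200 counts and a limit of 20% on mitochondrial counts. Cells were sorted into classes by marker genes that include no Frizzled. There were 15419 basal-like, 9136 differentiated-like and 3681 granular-like cells of the interfollicular epidermis (IFE), 4208 upper hair follicle (uHF)-like, 642 outer bulge (OB)-like, 188 inner bulge (IB)-like and 72 sebaceous gland-like cells, and 442 T cell-like and 305 Langerhans cell-like cells that served as a background. The OB-like label rests on Lhx2, which the gate required, since Sox9 (92.5%) and Nfatc1 (54.1%) were seen as often in IB-like cells (96.3 and 61.2%). Of the other OB markers Postn was seen in 18.7%, Lgr5 in 10.6% and Cd34 in 3.27% of OB-like cells, while the uHF marker Krt79 was seen in 56.4% and the IB marker Krt6a in 71.7%. The study reported lower Lhx2, Nfatc1 and Cd34 and higher Krt6a and Plet1 in OB cells of CerS4epi-/- mice. Each of these is a gate marker, so the follicle gates need not pick matched cells in both genotypes. The OB-like class held 114 and 72 cells in the controls and 252 and 204 in the CerS4epi-/- mice. The mice of a genotype shared no cell barcode, whereas mice of different genotypes shared 64 to 102. The sources used here do not say how the mice were spread over cartridges, so a cartridge and the genotype cannot be told apart. Cers4 itself was readable in sebaceous gland-like cells, of which the controls had only 12 and 2 and the CerS4epi-/- mice 26 and 32. There it stood at 2832 and 3968 CPM (the counts of a gene scaled to all counts of the class) in the controls and at 291 and 445 CPM in the CerS4epi-/- mice. Over all cells it was at 17.4 and 3.37 CPM against 4.21 and 7.73 CPM, with overlapping groups. In the other keratinocyte classes at most 14.5 counts per mouse were seen, which checks no label.

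The family gave 24735 counts in the cells kept. Fzd10 made up 25.9% of them with 6414 counts and Fzd6 23.7% with 5863 counts. Fzd1 (3582 counts), Fzd7 (3384 counts), Fzd5 (1647 counts), Fzd3 (1497 counts), Fzd2 (1270 counts) and Fzd8 (1038 counts) followed. Fzd4, the receptor for Norrin known from retinal vessels, had 36 counts and Fzd9 had 4, and neither could be tested in any class. The gene AI314278 overlaps Fzd4 on the same strand and had 857.8 counts, and its effect on the count of Fzd4 was not tested. Each count is 1 captured molecule by its molecular identifier (UMI) and was not divided by gene length.

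The summed level of the family, given in CPM, was highest in the follicle. It was 797 and 802 CPM in the IB-like cells of the controls and 1001 and 881 CPM in those of the CerS4epi-/- mice. It fell in order through OB-like (461 to 485 CPM), uHF-like (187 to 293 CPM), IFE basal-like (177 to 217 CPM), IFE differentiated-like (114 to 128 CPM) and IFE granular-like cells (45.6 to 61.4 CPM), with the ranges of the 4 mice overlapping only between uHF-like and IFE basal-like cells. The background stood at 33.8 to 74.7 CPM in T cell-like and 73.1 to 98.2 CPM in Langerhans cell-like cells, so the granular level was not above it. The make-up differed, since Fzd5 took 34.6 to 57.1% of the T cell-like counts and 9.72 to 21.0% of the granular-like counts. This background is not an empty floor. IFE differentiated markers summed to 10864 to 13830 CPM in T cell-like and 16850 to 32708 CPM in Langerhans cell-like cells. How much of the Frizzled counts there comes from keratinocyte RNA was not tested, so a level within the background is not shown to be absent.

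The share of cells with a UMI of any Frizzled depends on depth and was compared after thinning every cell to 1200 UMIs. It was then 60.6% ± 4.0 (SD, n = 4 mice) in IB-like, 41.8% ± 2.5 in OB-like, 26.3% ± 4.1 in uHF-like, 20.9% ± 1.1 in IFE basal-like, 13.9% ± 1.5 in IFE differentiated-like and 6.99% ± 0.89 in IFE granular-like cells, against 6.00% ± 1.69 in T cell-like and 8.94% ± 2.46 in Langerhans cell-like cells. Without thinning the shares were 92.0, 79.9, 50.5, 42.6, 47.0, 37.3, 9.90 and 24.5% in the same order. The differentiated-like cells thus lay above the basal-like cells without thinning and below them at equal depth, as their level in CPM did.

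**Figure D1:**
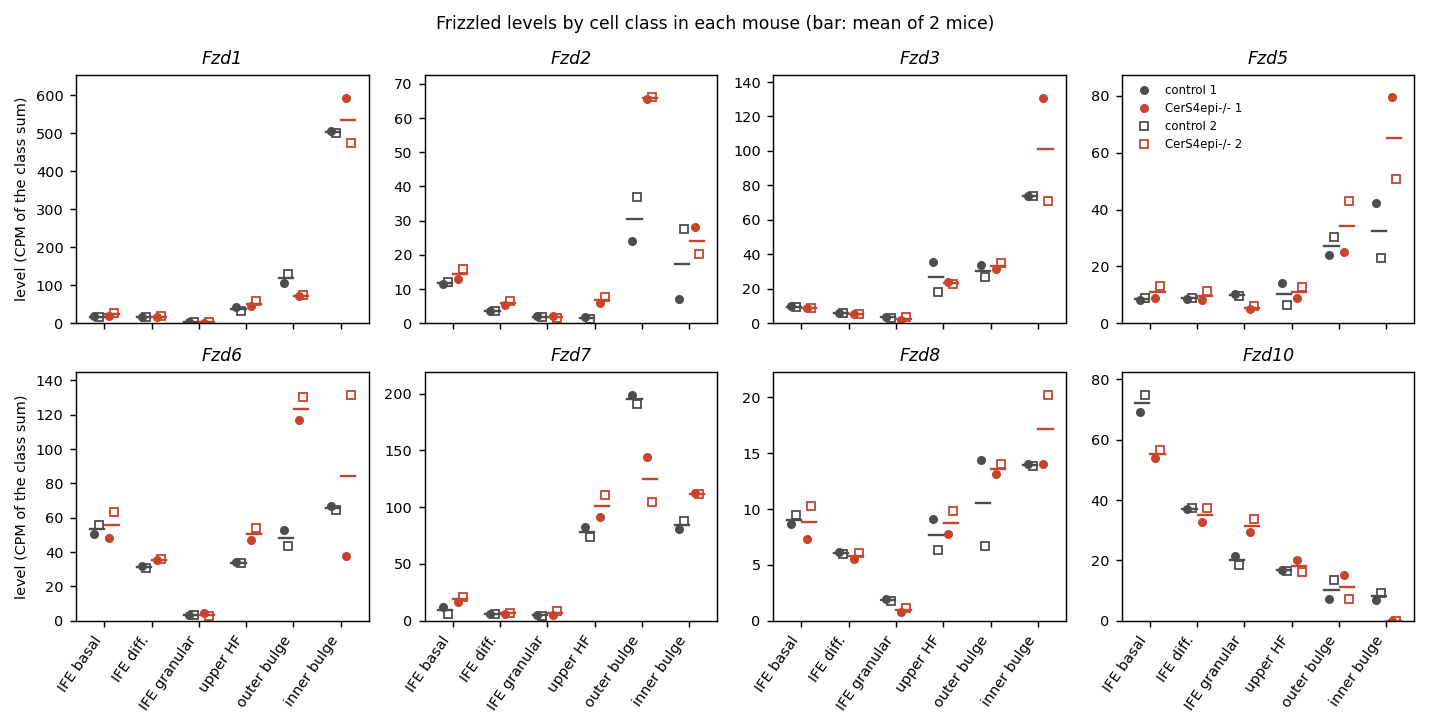
Level of the 8 measurable Frizzleds (y axis, CPM, from 0 and scaled per gene) in 6 cell classes (x axis), with 1 point per mouse and a bar at the mean of the 2 mice of a genotype. Fzd1 peaks in the IB-like cells near 500 CPM and Fzd10 in the IFE basal-like cells, and Fzd7 has its highest mean in the OB-like cells. The 2 CerS4epi-/- mice lie well above the controls for Fzd2 and Fzd6 in the OB-like cells.

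The make-up of the family changed along with its level. Fzd10 and Fzd6 together led the IFE basal-like and differentiated-like cells, where Fzd10 alone took 26.1 to 38.9% of the family's counts in basal-like cells. In granular-like cells Fzd10 took 40.8 to 58.4% and Fzd6 4.40 to 8.40%. Fzd7 led the uHF-like cells with 34.9 to 39.3% of the counts, and Fzd1 the IB-like cells with 54.0 to 63.4%. In OB-like cells Fzd7 led in both controls with 43.2 and 39.9% and in CerS4epi-/- mouse 1 with 29.8%, whereas Fzd6 led in CerS4epi-/- mouse 2 with 27.3%.

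**Figure D2:**
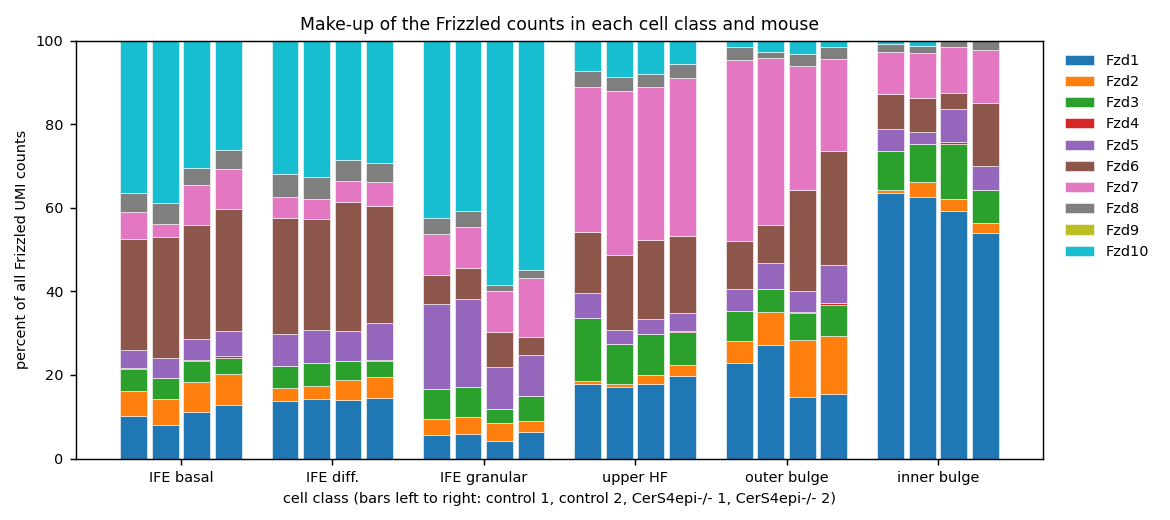
Percent of all Frizzled UMI counts (y axis) taken by each member in 6 cell classes, with 1 stacked bar per mouse in the order control 1, control 2, CerS4epi-/- 1 and CerS4epi-/- 2. Fzd10 shrinks and Fzd7 and Fzd1 grow from the IFE to the follicle, where Fzd1 takes at least 54.0% of the bar in each of the 4 IB-like samples.

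Neighbouring classes were compared with edgeR's quasi-likelihood test on class sums with the mouse as a block and Benjamini-Hochberg adjustment over all genes. From basal-like to differentiated-like IFE, 6 of the 8 members tested passed an adjusted p of 0.05, all lower, where 70.2% of all 12986 genes passed. From differentiated-like to granular-like IFE, 5 of 8 passed (80.6% of all genes), Fzd7 higher and Fzd1, Fzd2, Fzd6 and Fzd8 lower. Between uHF-like and IFE basal-like cells 5 of 8 passed (63.2% of all genes), with Fzd1, Fzd3 and Fzd7 higher and Fzd2 and Fzd10 lower. OB-like cells differed from IFE basal-like cells in 7 of 8 members (36.5% of all genes), 6 higher and Fzd10 lower. Against uHF-like cells, OB-like cells were higher in 4 of 8, namely Fzd1, Fzd2, Fzd5 and Fzd6 (14.7% of all genes). IB-like cells were higher than OB-like cells in 2 of the 5 members that could be tested, Fzd1 and Fzd3 (14.8% of all genes).

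The test scales each class sum by trimmed means (TMM), so a fitted change is relative to the bulk of the genes, whereas a level in CPM is a share of all counts. In the granular-like cells the 2 scales parted, and the fitted changes against differentiated-like cells lay a median of 0.62 on the log2 scale above the plain CPM ratios of the 8 members. Against IFE basal-like cells this shift was 0.20 for differentiated-like, 0.25 for uHF-like and 0.21 for OB-like cells. Fzd7, called higher in granular-like than in differentiated-like cells (0.47 ± 0.15, adjusted p = 0.0128, edgeR), was higher in CPM in 1 of the 4 mice only, and it was -0.10 (adjusted p = 0.427) with stricter gates. The other calls between classes had the same direction on both scales.

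**Figure D3:**
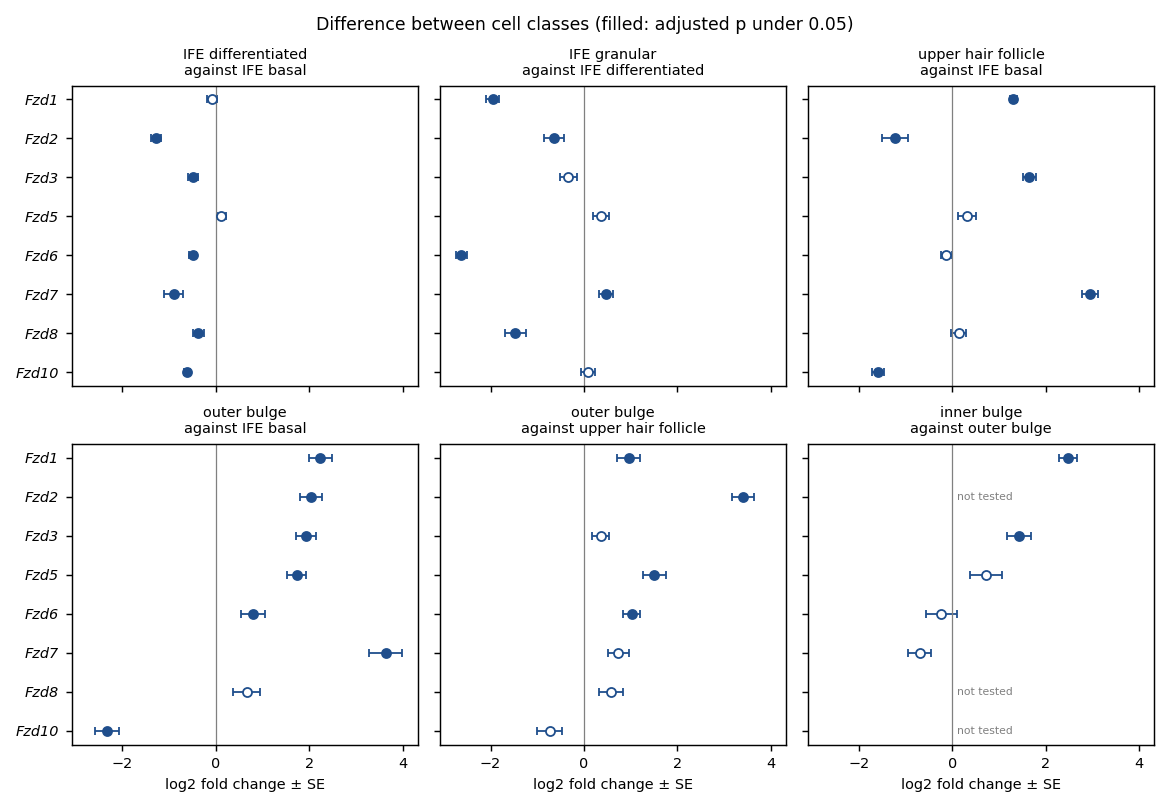
Log2 fold change with its standard error (x axis) of 8 Frizzleds (y axis) in 6 comparisons between cell classes over the 4 mice, with filled points past an adjusted p of 0.05. Most members lie left of 0 along the IFE and right of 0 in the follicle classes, with Fzd10 on the left in every follicle comparison in which it was tested.

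Fzd1, Fzd2 and Fzd7, the closest relatives by sequence, each had their highest mean in the follicle, Fzd1 in IB-like and Fzd2 and Fzd7 in OB-like cells. This was not particular to them, since Fzd3, Fzd5, Fzd6 and Fzd8 also had their highest mean in a bulge class. Fzd1 stood at 506, 502, 594 and 476 CPM in the IB-like cells of control 1, control 2, CerS4epi-/- 1 and CerS4epi-/- 2, an order of mice kept in all lists of 4 values below. In OB-like cells it was at 106, 131, 71.6 and 73.9 CPM, and in uHF-like cells at 42.6, 32.1, 44.4 and 58.2 CPM. These 3 classes did not overlap with each other in any mouse, and Fzd1 fell from 15.5 to 27.9 CPM in basal-like IFE to 2.16 to 3.84 CPM in granular-like IFE. The step from OB-like to IB-like cells was a log2 fold change of 2.48 ± 0.20 (SE, adjusted p = 9.06e-05, edgeR), and that from differentiated-like to granular-like cells fell by 1.96 ± 0.13 on the log2 scale (adjusted p = 6.94e-08, edgeR).

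Fzd7 had its highest mean in OB-like cells, at 199, 191, 144 and 105 CPM. The difference of OB-like from uHF-like cells (log2 fold change 0.74 ± 0.23, adjusted p = 0.0655) was not called by edgeR. Nor was that of IB-like from OB-like cells (-0.70 ± 0.24, adjusted p = 0.0863, edgeR). With classes by the highest score, OB-like cells were lower than uHF-like cells, at -0.41 on the log2 scale. The OB-like cells of the 2 controls were above the IB-like (80.7 to 112 CPM) and uHF-like cells (73.6 to 111 CPM), while CerS4epi-/- mouse 2 was inside these ranges. IFE basal-like cells held 12.1, 5.86, 16.7 and 20.7 CPM, and IFE differentiated-like cells 5.48 to 7.08 CPM, where the background was 0 to 5.63 CPM in T cell-like and 8.06 to 17.3 CPM in Langerhans cell-like cells. Fzd7 rose from IFE basal-like to uHF-like cells by 2.94 ± 0.17 on the log2 scale (adjusted p = 1.07e-06, edgeR) and to OB-like cells by 3.64 ± 0.36 (adjusted p = 4.77e-05, edgeR), the largest steps of the family in these comparisons.

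Fzd2 was also highest in OB-like cells, at 24.0, 36.9, 65.7 and 66.0 CPM from 10, 11, 100 and 75 counts. In uHF-like cells only 1.74, 1.26, 5.93 and 7.66 CPM were found, from 4, 2, 39 and 43 counts. The log2 fold change between these classes was 3.41 ± 0.24 (adjusted p = 8.42e-05, edgeR). In the IFE, Fzd2 was a basal gene: it went from 11.4 to 15.8 CPM in basal-like to 3.52 to 6.41 CPM in differentiated-like cells, a fall by 1.28 ± 0.11 on the log2 scale (adjusted p = 1.8e-06, edgeR).

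Fzd3 and Fzd6 are the receptors known for planar cell polarity, and they were distributed differently. Fzd3 was highest in IB-like cells, at 73.7, 73.7, 131 and 70.9 CPM, and next in OB-like (26.9 to 35.2 CPM) and uHF-like cells (18.2 to 35.6 CPM), which overlapped each other. It was at most 10.045 CPM in IFE basal-like cells. Fzd6 was spread over the follicle and the living IFE. It stood at 50.6, 55.7, 48.3 and 63.3 CPM in IFE basal-like, 30.5 to 36.0 CPM in differentiated-like and 33.3 to 54.1 CPM in uHF-like cells. Granular-like cells held at most 4.23 CPM, below the Langerhans cell-like background of 17.3 to 28.4 CPM, and the fall from differentiated-like to granular-like cells of 2.63 ± 0.12 on the log2 scale was the steepest of the family along the IFE (adjusted p = 1.42e-09, edgeR). The higher Fzd6 of OB-like over IFE basal-like cells (log2 fold change 0.80 ± 0.26, adjusted p = 0.0348, edgeR) came with the CerS4epi-/- mice. In the control mice alone it was -0.046 with an adjusted p of 0.94 in edgeR.

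Fzd5 and Fzd8 form another close pair and were low in most classes. Fzd5 reached 42.1, 23.0, 79.5 and 50.6 CPM in IB-like cells from 5 to 17 counts per mouse and 24.0 to 43.1 CPM in OB-like cells. It was at 8.12 to 13.2 CPM in IFE basal-like cells at 8.15 to 11.2 CPM in differentiated-like and at 5.02 to 10.4 CPM in granular-like cells. The steps to differentiated-like (log2 fold change 0.12 ± 0.10, adjusted p = 0.315) and on to granular-like cells (0.37 ± 0.17, adjusted p = 0.0639) were not called by edgeR. T cell-like cells held 16.9 to 27.8 CPM of Fzd5 from 4 to 9 counts per mouse, above every IFE and uHF-like value. Fzd8 was at 13.8 to 20.3 CPM in IB-like and 7.33 to 10.3 CPM in IFE basal-like cells and was not called in any comparison that involved a follicle class. It had 0 counts in the T cell-like cells of all 4 mice. Along the IFE it fell to 0.787 to 1.95 CPM in granular-like cells (a fall by 1.47 ± 0.22 on the log2 scale from differentiated-like cells, adjusted p = 5.77e-05, edgeR).

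Fzd10 was a gene of the IFE. It was highest in IFE basal-like cells, at 69.2, 74.8, 54.0 and 56.5 CPM, followed by differentiated-like (32.6 to 37.4 CPM) and granular-like cells (18.6 to 33.7 CPM), which overlapped. In uHF-like cells it was at 16.2 to 20.1 CPM, no higher than the Langerhans cell-like background of 8.67 to 31.3 CPM, and in IB-like cells 2 counts were seen in each control mouse and 0 in each CerS4epi-/- mouse. The log2 fold change of OB-like against IFE basal-like cells was -2.33 ± 0.25 (adjusted p = 8.51e-05, edgeR). An antisense gene, Fzd10os, overlaps Fzd10 and had 2518 counts, and since the sources used here do not state a strand setting for the counting, reads of the pair may not be fully told apart. Its counts were 28.2 to 32.9% of those of Fzd10 in IFE basal-like cells and 44.3 to 76.9% in granular-like cells.

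Between the genotypes, 7 of 45 tests of a member in a class passed an adjusted p of 0.05 in edgeR's quasi-likelihood test over all genes, 6 higher and 1 lower in CerS4epi-/- mice. Per class, 1 of 8 members was called in IFE basal-like cells (7.52% of all genes), 0 of 8 in differentiated-like cells (6.38%), 2 of 8 in granular-like cells (9.62%), 2 of 8 in uHF-like cells (10.8%), 2 of 8 in OB-like cells (7.24%) and 0 of 5 in IB-like cells (6.52%). In the differentiated-like cells 1 member, and in the IB-like cells 0, had an unadjusted p under 0.05, and DESeq2 called none in either. DESeq2 called 2 of the 7, Fzd10 in granular-like and Fzd6 in OB-like cells. The 4 mice are the only replicates, and all classes come from the same mice, so calls in different classes are not independent.

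**Figure D4:**
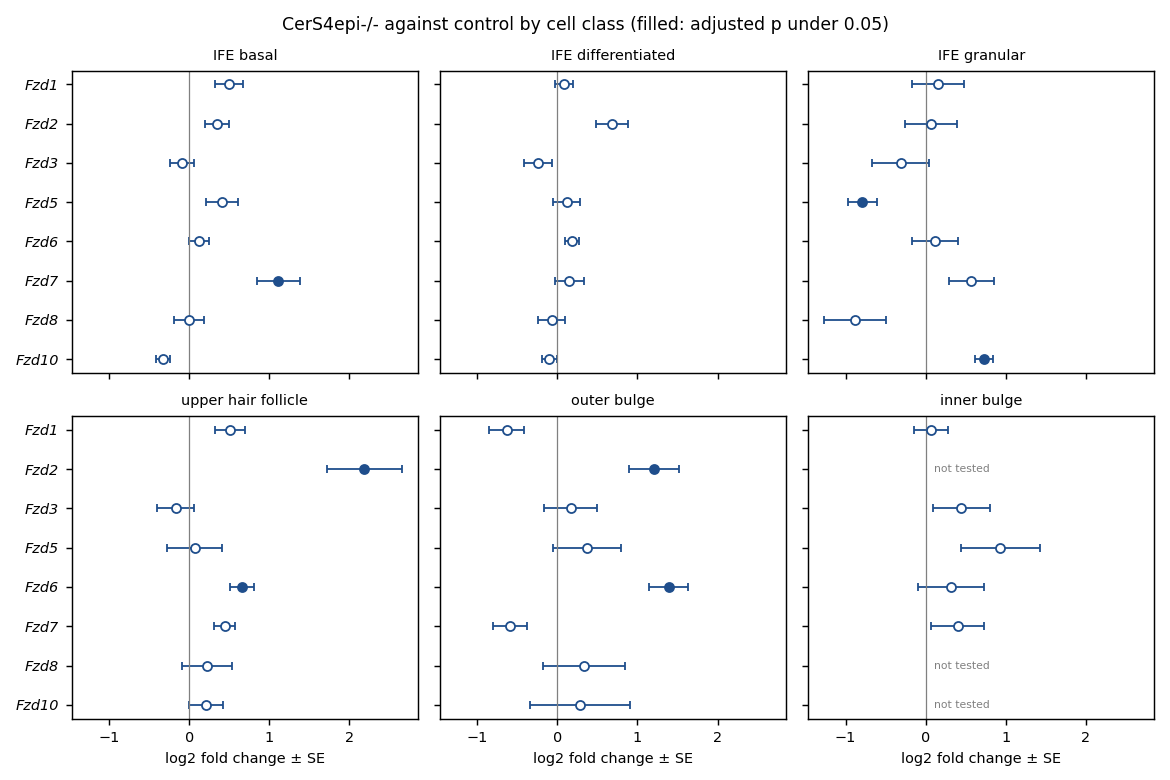
Log2 fold change of CerS4epi-/- against control with its standard error (x axis) for 8 Frizzleds (y axis) in 6 cell classes, 2 mice per genotype, with filled points past an adjusted p of 0.05. Fzd2 and Fzd6 lie right of 0 in both uHF-like and OB-like cells, Fzd7 in IFE basal-like cells, and Fzd10 to the right and Fzd5 to the left in granular-like cells.

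Fzd6 showed the clearest difference in OB-like cells. It was at 52.8 and 43.7 CPM in the controls, from 22 and 13 counts, and at 117 and 130.3 CPM in the CerS4epi-/- mice, from 178 and 148 counts. Both CerS4epi-/- mice were more than 2-fold above both controls, 2.56-fold in the means. The log2 fold change was 1.39 ± 0.24 (adjusted p = 0.00734, edgeR). In uHF-like cells Fzd6 was at 34.3 and 33.3 CPM in the controls and 47.3 and 54.1 CPM in the CerS4epi-/- mice, a smaller difference with no overlap (log2 fold change 0.66 ± 0.15, adjusted p = 0.016, edgeR). In IFE basal-like cells the groups overlapped, and the log2 fold change was 0.12 ± 0.13 (adjusted p = 0.624, edgeR). The effect in OB-like cells exceeded that in IFE basal-like cells by 1.35 ± 0.30 on the log2 scale (adjusted p = 0.00568, edgeR class by genotype term), and 2 of 8 members were called in that comparison, where 3.72% of all genes were. Without control 1 or control 2 the OB-like effect was 1.54 and 1.29 with adjusted p = 0.0708 and 0.0549, and the uHF-like effect had adjusted p = 0.0677 and 0.0768 (edgeR).

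Fzd2 rose in the same follicle classes. In OB-like cells the CerS4epi-/- mice stood at 65.7 and 66.0 CPM against 24.0 and 36.9 CPM, a log2 fold change of 1.20 ± 0.31 (adjusted p = 0.0444, edgeR). In uHF-like cells they stood at 5.93 and 7.66 CPM against 1.74 and 1.26 CPM, a log2 fold change of 2.19 ± 0.47 (adjusted p = 0.0129, edgeR). The controls hold 6 counts in all there against 82, and the ratio of 4.36 from the pooled counts has an exact 95% interval of 1.92 to 12.2 for counting error only. With control 1, control 2 or CerS4epi-/- 2 left out, the adjusted p was 0.0627, 0.0685 and 0.0613. The uHF-like effect exceeded that in IFE basal-like cells by 1.86 ± 0.50 on the log2 scale (adjusted p = 0.033, edgeR), the single member of 8 called in that comparison, where 5.32% of all genes were. In IFE differentiated-like cells Fzd2 was at 3.52 and 3.70 CPM in the controls and 5.33 and 6.41 CPM in the CerS4epi-/- mice, with no overlap but no call (0.68 ± 0.20, adjusted p = 0.0859, edgeR).

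The follicle classes were not alike in other respects between the genotypes. The median OB-like cell had 3099 and 3262 counts in the controls and 4881 and 4513 counts in the CerS4epi-/- mice. The summed level of the 4 IFE differentiated markers was 15168 and 25227 CPM in the OB-like cells of the controls against 9370 and 6836 CPM, and 18984 and 21133 CPM against 14532 and 12707 CPM in the uHF-like cells. The 4 inner bulge markers moved the other way, from 490 and 411 CPM to 1163 and 2049 CPM in uHF-like cells and from 2885 and 2928 CPM to 3214 and 8161 CPM in OB-like cells, and their part in the Fzd2 and Fzd6 results was not tested. With the follicle cells that hold more differentiated than basal marker counts left out, Fzd6 in OB-like cells was still called (1.37, adjusted p = 0.0281, edgeR), whereas Fzd2 in OB-like (0.51, adjusted p = 0.52), Fzd2 in uHF-like (3.24, adjusted p = 0.0877) and Fzd6 in uHF-like cells (0.75, adjusted p = 0.149) were not. The median share of mitochondrial counts was 8.07 and 8.22% in control and 10.1 and 11.8% in CerS4epi-/- OB-like cells. With cells above 10% left out, none of these 4 results passed the threshold, and their log2 fold changes lay between 0.55 and 1.76. Fzd2 in OB-like cells also missed it with any 1 mouse left out (adjusted p from 0.068 to 0.297).

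The genotype effect on Fzd7 differed between the classes. In IFE basal-like cells it was at 12.1 and 5.86 CPM in the controls and 16.7 and 20.7 CPM in the CerS4epi-/- mice, and the groups did not overlap (log2 fold change 1.11 ± 0.27, adjusted p = 0.0405, edgeR). In OB-like cells it was at 199 and 191 CPM against 144 and 105 CPM, which edgeR did not call (-0.59 ± 0.21, adjusted p = 0.14). The difference between these effects was -1.63 ± 0.31 (adjusted p = 0.000995, edgeR), the other member called there, and without control 1 or control 2 it was -2.18 and -1.21 with adjusted p = 0.0746 and 0.116. It was also called between differentiated-like and basal-like IFE (-0.97 ± 0.25, adjusted p = 0.0423, edgeR), 1 of 8 members where 2.86% of all genes were. That call was lost under DESeq2 (adjusted p = 0.555), at most 10% mitochondrial counts, stricter gates and classes by the highest score. It was also lost with IFE-like cells that hold follicle markers left out, and so was the call of lower Fzd7 in differentiated-like than in basal-like cells. In uHF-like cells Fzd7 was at 83.0 and 73.6 CPM against 91.7 and 111 CPM, higher in both CerS4epi-/- mice without a call (0.44 ± 0.13, adjusted p = 0.058, edgeR).

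Follicle markers moved with Fzd7 in the basal-like IFE. The 6 outer bulge markers summed to 151 and 112 CPM in the controls and 314 and 299.6 CPM in the CerS4epi-/- mice there, and the 5 uHF markers to 425 and 363 CPM against 672 and 906 CPM. The 4 inner bulge markers were at 89.7 and 61.4 CPM in the controls and 119 and 268 CPM in the CerS4epi-/- mice. With IFE-like cells that hold a UMI of Krt17, Krt79, Sox9, Lhx2 or Krt6a left out, the log2 fold change of Fzd7 was 0.76 (adjusted p = 0.279, edgeR), and the difference from OB-like cells was called at -1.30 (adjusted p = 0.0299, edgeR). With the OB-like cells that also pass the uHF gate left out instead, that difference was -1.04 and not called (adjusted p = 0.139), Fzd2 in OB-like cells was 1.21 (adjusted p = 0.0991) and Fzd6 there was 1.91 (adjusted p = 0.0153, edgeR). Without control mouse 2 the log2 fold change of Fzd7 in IFE basal-like cells was 0.67, and without CerS4epi-/- mouse 2 it was 0.95.

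In granular-like IFE Fzd10 was at 21.5 and 18.6 CPM in the controls and 29.4 and 33.7 CPM in the CerS4epi-/- mice. The CerS4epi-/- mice were 1.57-fold higher in the means with no overlap (log2 fold change 0.73 ± 0.12, adjusted p = 0.00938, edgeR). Without control mouse 2 the adjusted p was 0.0629. The background was 8.67 to 31.3 CPM in Langerhans cell-like and 2.82 to 20.1 CPM in T cell-like cells, so 3 of the 4 granular values lie within it. The antisense Fzd10os was at 16.6 and 14.0 CPM against 17.1 and 14.9 CPM in the same cells, with overlapping groups. In IFE basal-like cells Fzd10 was at 69.2 and 74.8 CPM in the controls and 54.0 and 56.5 CPM in the CerS4epi-/- mice, lower in both without a call (-0.33 ± 0.09, adjusted p = 0.0563, edgeR).

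Fzd5 was the 1 member called lower. In granular-like cells it was at 10.4 and 9.57 CPM in the controls and 5.02 and 5.97 CPM in the CerS4epi-/- mice, with no overlap (log2 fold change -0.79 ± 0.18, adjusted p = 0.0331, edgeR). These levels lie below the 16.9 to 27.8 CPM of T cell-like cells. With control 1, control 2 or CerS4epi-/- 1 left out, its adjusted p was 0.119, 0.0939 and 0.122. Fzd1 in OB-like cells was lower in both CerS4epi-/- mice without a call (-0.63 ± 0.22, adjusted p = 0.13, edgeR), and it was 0.07 ± 0.21 in IB-like cells, where its level was highest (adjusted p = 0.948, edgeR). Fzd1, Fzd3 and Fzd8 were not called between the genotypes in any class.

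**Figure D5:**
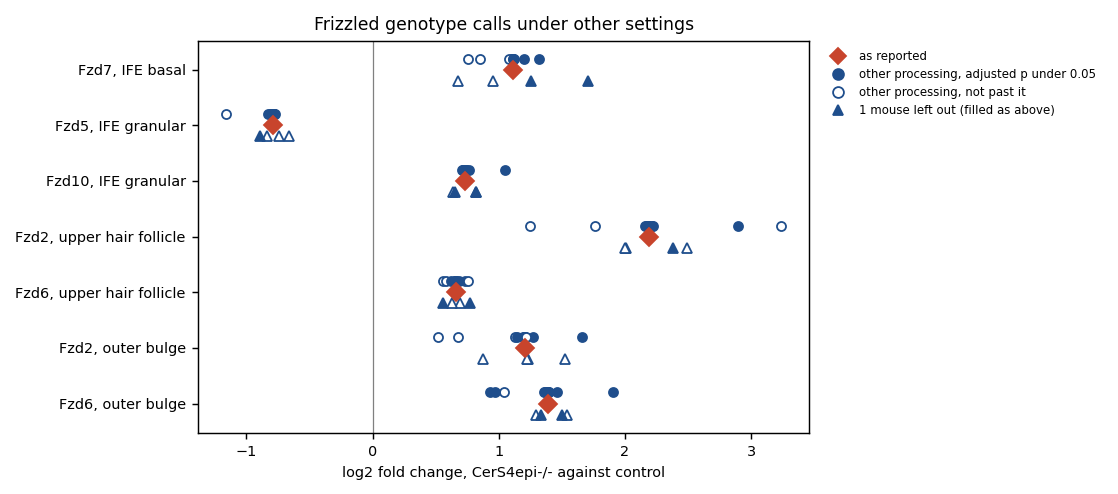
Log2 fold change of CerS4epi-/- against control (x axis) for the 7 Frizzled calls (y axis), as reported (diamond), under other processing (circles) and with 1 mouse left out (triangles), filled where the adjusted p was under 0.05. Some circles repeat the diamond because the setting left the cells of that class unchanged. No point changes side, Fzd10 in granular-like and Fzd6 in OB-like cells are filled in most settings, and Fzd2 in OB-like cells is open in 10 of 15.

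The other genes of the pathway were counted from 10 lists of 82 genes in all. Their calls were read with the main processing only, and how many hold under the alternatives was not examined. In IFE basal-like cells 12 of 58 tested were called between the genotypes, 6 higher and 6 lower, which is 20.7% where 7.52% of all genes were called. In the other classes the counts were 5 of 56 in differentiated-like cells, 4 of 50 in granular-like cells, 7 of 49 in uHF-like cells, 5 of 43 in OB-like cells and 0 of 17 in IB-like cells, against 6.38, 9.62, 10.8, 7.24 and 6.52% of all genes. The IFE basal-like cells also differed in outer bulge markers, at 151 and 112 CPM in the controls and 314 and 300 CPM in the CerS4epi-/- mice. The part of such markers in the calls of these lists was not tested. The median log2 fold change of the polarity list was -0.06 in IFE basal-like and 0.22 in OB-like cells, that of the turnover list -0.21 and -0.86 and that of the ligands -0.11 and -0.78, where the median of all genes was 0.00 in both. Among the planar cell polarity partners, Vangl1, which acts beside Fzd3 and Fzd6, was higher in CerS4epi-/- mice in 5 of the 6 classes. In OB-like cells it stood at 81.6 and 70.5 CPM in the controls and 137 and 145 CPM in the CerS4epi-/- mice (log2 fold change 0.93 ± 0.22, adjusted p = 0.0264, edgeR). Celsr2 was higher in differentiated-like and granular-like cells (0.34 ± 0.07 and 0.51 ± 0.09, adjusted p = 0.0265 and 0.013, edgeR), and Prickle2 was lower in uHF-like cells (-0.73 ± 0.12, adjusted p = 0.00305, edgeR).

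Of the genes that govern Frizzled turnover, Lgr6, an R-spondin receptor, was lower in 4 classes. In IFE basal-like cells it went from 68.2 and 85.8 CPM to 30.7 and 29.8 CPM (log2 fold change -1.29 ± 0.12, adjusted p = 0.000945, edgeR). The ubiquitin ligases Znrf3 and Rnf43, which remove Frizzled from the membrane, were tested in 5 classes each and not called. Among the ligands Wnt11 was higher in IFE basal-like cells, at 1.57 and 2.06 CPM in the controls and 6.04 and 6.65 CPM in the CerS4epi-/- mice (1.85 ± 0.24, adjusted p = 0.00373, edgeR), and in differentiated-like cells (2.09 ± 0.25, adjusted p = 0.00274, edgeR). Wnt10b (-0.61 ± 0.12) and Wnt5a (-0.54 ± 0.12) were lower in IFE basal-like cells (adjusted p = 0.0162 and 0.0292, edgeR). No ligand was called in the follicle classes, where 1 to 7 of the 19 could be tested.

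Of the co-receptor list Gpc4, a glypican, was higher in IFE basal-like and OB-like cells (0.51 ± 0.11 and 1.55 ± 0.34, adjusted p = 0.0259 and 0.0216, edgeR). Sostdc1, a secreted inhibitor that binds Lrp proteins, was higher in the same classes (0.94 ± 0.11 and 1.29 ± 0.21, adjusted p = 0.00227 and 0.00531, edgeR), as was Dkk3 in IFE basal-like cells (1.11 ± 0.21, adjusted p = 0.0171, edgeR). The list of canonical targets also held TCF factors, which are effectors of the pathway and not a readout of its activity. Of these factors Tcf7l1 was higher in IFE basal-like and uHF-like cells (1.33 ± 0.27 and 1.53 ± 0.29, adjusted p = 0.0203 and 0.00579, edgeR) and Tcf7l2 in uHF-like cells (0.69 ± 0.19, adjusted p = 0.0414, edgeR). From the same list Nkd2 was lower in differentiated-like and granular-like cells (-1.98 ± 0.24 and -1.73 ± 0.24, adjusted p = 0.00276 and 0.00555, edgeR). Of the calcium arm, Nfatc1 was lower in uHF-like and OB-like cells (-0.55 ± 0.12 and -1.38 ± 0.17, adjusted p = 0.0147 and 0.00132, edgeR) and is itself a marker in the OB gate. Nfatc3 was lower in IFE basal-like and uHF-like cells (-0.34 ± 0.08 and -0.45 ± 0.13, adjusted p = 0.0337 and 0.0444), Plcb4 lower in IFE basal-like cells (-0.75 ± 0.16, adjusted p = 0.0237) and Camk2d higher in granular-like cells (0.44 ± 0.08, adjusted p = 0.0131, edgeR). The Dishevelled genes, the secreted binders of Wnt and the 2 partners of Fzd4 had no call, the last because neither was tested in any class.

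The members fell into patterns over the 36 sums of 9 classes and 4 mice, which share libraries and depth. All sums had equal weight, also those of the sebaceous gland-like cells, which held only 12 and 2 cells in the controls. Fzd1 and Fzd3 were the most alike (Pearson r = 0.90 of log2(CPM + 1)), and Fzd10 ran against or apart from each of the others, from r = -0.34 with Fzd7 to -0.02 with Fzd2. Of the pairs close in sequence, r was 0.68 for Fzd1 and Fzd2, 0.59 for Fzd2 and Fzd7, 0.74 for Fzd1 and Fzd7 and 0.20 for Fzd5 and Fzd8. Of the 12644 genes compared, those most like Fzd1 were Vwa1, Fzd3 and Dixdc1 (r = 0.90, 0.90 and 0.87), those most like Fzd6 were Bcl11a, Golim4 and Cd81 (0.91, 0.91 and 0.90), and those most like Fzd7 were Sox9, itself a gate marker, Foxc1 and Itgb8 (0.92, 0.92 and 0.88). Fzd2 ran most like Ldlrad3, Rab15 and Sorcs2 (0.85, 0.79 and 0.79), Fzd3 like Fzd1, Inf2 and Mical3 (0.90, 0.87 and 0.87) and Fzd5 like Mpzl1, Sgk1 and Braf (0.86, 0.86 and 0.81). Fzd8 ran most like Aimp1, Lyrm1 and A430005L14Rik (0.84, 0.84 and 0.83), and Fzd10 like Pou3f1, Oas1f and Il22ra2 (0.88, 0.87 and 0.87).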

How the data were processed

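Back skin epidermis of 4 mice was profiled by single-cell RNA sequencing (BD Rhapsody), with mice told apart by sample tags. Per the labels and the study's methods, the authors filtered reads with fastp 0.23.2 and counted UMIs over whole gene bodies with STAR 2.7.10a (STARsolo) on GRCm39, spreading reads that map to several genes by expectation maximisation, so the deposited values are estimated counts per gene and barcode. A strand setting is not given in the sources used here.

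Barcodes under 1200 counts or over 20% mitochondrial counts were left out. Gates on 12 marker lists, with limits set after the spread of the markers was seen, gave 9 classes, and 44 cells that passed the gates of more than 1 lineage were put aside as mixed. The IB, OB and uHF gates counted as 1 lineage. A cell that passed the OB and uHF gates but not the IB gate was labelled OB-like, and of the 642 OB-like cells 319 did not pass the uHF gate. No doublet caller was run. For the tests, counts were summed per class and mouse where each mouse had at least 20 cells and rounded. Levels in CPM and correlations used every class sum without rounding. The mouse is the replicate, so p-values rest on the spread between these 4 mice, moderated by edgeR with the spread of all genes of a fit. Each standard error was derived from the log2 fold change and the edgeR test statistic. Genotypes, 6 pairs of classes (mouse as block) and the class by genotype terms were tested with edgeR 4.0.16 (R 4.3.3; TMM, filterByExpr, quasi-likelihood), with Benjamini-Hochberg adjustment over all genes at 0.05. The code was tested on simulated data. All members were named, along with the Wnt genes past the threshold (up to 3 per list and class) and the 3 genes most like each member with at least 200 counts, by Pearson correlation of log2(CPM + 1). Members and lists were chosen with earlier results of these data known. Tried as alternatives were testing without the filter on low counts, DESeq2 1.42.0 and, in edgeR, its size factors, a replicate or no mouse block, control mice alone, other cell filters and gates, thinning, and each mouse left out. After the data were seen, 3 more were added, which left out IFE-like cells with follicle markers, follicle cells on the differentiated side, and OB-like cells that pass the uHF gate. Intervals cover counting error only. Upstream sequences of members other than Fzd5, Fzd7 and Fzd10 are not reported here. Upstream sequences and coding identities were read from the reference genome with Biopython 1.88 in Python 3.11.15.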

Additional observations from a re-analysis of the deposited data

Results flagged for a closer look

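The genotype effect on 3 members differed between cell classes in edgeR's class by genotype test with Benjamini-Hochberg adjustment. The effect on Fzd7 in OB-like cells was -1.63 ± 0.31 on the log2 scale relative to that in IFE basal-like cells (adjusted p = 0.000995), and in IFE differentiated-like cells it was -0.97 ± 0.25 relative to the same cells (adjusted p = 0.0423). The effect on Fzd6 was 1.35 ± 0.30 larger in OB-like than in IFE basal-like cells (adjusted p = 0.00568), and that on Fzd2 was 1.86 ± 0.50 larger in uHF-like than in IFE basal-like cells (adjusted p = 0.033). Of the alternatives tried, the Fzd7 difference in OB-like cells was called in 11 of 14, that of Fzd6 in 9 of 14, that of Fzd7 in differentiated-like cells in 8 of 14 and that of Fzd2 in 5 of 13. For Fzd2 and for Fzd7 in differentiated-like cells, some of these settings left both classes unchanged and so could only return the reported value. The follicle marker levels that moved with Fzd7 in IFE basal-like cells enter each of its differences, and their part in it was not tested beyond the removal of marker-positive cells given above.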

How the results depend on the processing

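The 7 calls between genotypes were 2 with DESeq2, 12 with no filter on low counts, 2 with at most 10% mitochondrial counts, 4 with basal-side follicle cells and 0 to 10 with 1 mouse left out (2 without control 1, 0 without control 2, 4 without CerS4epi-/- 2 and 10 without CerS4epi-/- 1). The 4 calls of the class by genotype terms were 1 with DESeq2, 7 with no filter, 1 with at most 10% mitochondrial counts, 2 with stricter gates, 2 with classes by the highest score and 0 to 5 with 1 mouse left out. The 29 calls between classes stayed between 25 and 34. The cause of these changes was not tested. The replicate numbers did not pair the mice (correlations of deviations -0.0477 to 0.0852), and with a replicate block there were 8 calls between genotypes. Thinning lowered the share of cells with any Frizzled UMI from 44.9% ± 3.52 to 18.65% ± 2.18 (SD, n = 4 mice), since each cell then holds fewer UMIs.

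Of 105 alternatives to the called genotype effects 67 were past the threshold, 38 were not and 0 changed sign. Some of the 67 left the cells of the class tested unchanged and so could only return the reported value. Leaving out follicle cells, for instance, does not touch the IFE classes. Between classes 7 values changed sign with a call under at least 1 of the settings compared, and changes of sign with no call under either were not counted. These were, on the log2 scale, Fzd7 from differentiated-like to granular-like cells at -0.10 with stricter gates, Fzd10 there at -0.36 in control mice alone, Fzd6 of OB-like against basal-like cells at -0.046 in control mice alone, Fzd6 of uHF-like against basal-like cells at 0.57 with basal-side follicle cells, and, of OB-like against uHF-like cells with classes by the highest score, Fzd7 at -0.41, Fzd10 at 0.83 and Fzd3 at -0.52. Low counts or few cells limit Fzd4 and Fzd9, the 72 sebaceous gland-like cells, which were not tested, the 188 IB-like cells and Fzd2 in uHF-like cells.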
